A study of Danio rerio with 43 samples.

Results

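The set described here holds transcripts that the fertilised zebrafish egg carried at the 1-cell stage and that were much lower in wild-type embryos by the 256-cell stage. An entry of the count table belonged to it when its mean level over the wild-type libraries was at least 20 CPM (counts per 1000000 counts of the library) at the 1-cell stage, and at most 1/8 of that mean at each of the 256-cell, dome and shield stages. Of 31877 entries, 5941 reached the 1-cell minimum, and 48 of these (0.808%) met the whole rule. At the 256-cell stage alone, 98 of the 5941 were at or under 1/8.

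The study asked how loss of rif1 changes gene expression in early development, and counted 3′ end reads (QuantSeq libraries of polyadenylated RNA) from pools of whole embryos. Wild-type (WT) embryos and embryos homozygous for the rif1 allele omf201 were both of the Tab5 strain. The groups were, for wild type and mutants in that order, 4 and 3 libraries at the 1-cell stage (0 to 0.5 hours post fertilisation, hpf), 3 and 3 at 256-cell (2 to 2.5 hpf), 4 and 3 at dome (4 to 4.5 hpf), 3 and 4 at shield (6 hpf), 4 and 4 at bud (10 hpf), and 4 and 4 at 24 hpf. The 22 wild-type and 21 mutant libraries held 5211421 to 14143931 counts each, with a median of 7606729. The rif1 entry itself had 587 to 2305 counts in wild-type libraries and 15 to 139 in mutants, and it was already low in the 3 mutant libraries at the 1-cell stage, with 38 to 54 counts against 630 to 1540.

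A zebrafish embryo starts with RNA that the mother loaded into the egg, and its own genome is broadly transcribed only from the mid-blastula transition onward. Maternal mRNAs are removed in waves: some by factors already present in the egg, soon after fertilisation, and others by products of the zygotic genome such as miR-430. A 3′ end library primed on oligo(dT) sees a transcript through its poly(A) tail, so a lower level can be less RNA or a shorter tail, and these cannot be told apart here. The 1-cell libraries also carry their own numbering in the labels, so a batch and the 1-cell stage cannot be told apart.

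Sorted by name, the 48 members comprised 23 named protein-coding or other genes, 11 small noncoding RNA entries, 3 histone genes, 3 entries with clone names and 8 entries without a symbol. A symbol was matched to 40 of them; 28 of those symbols were unique in the table and 12 were shared by several entries, which are named by identifier and are uncertain because copies can share reads. The 11 small noncoding members were 6 entries for the RNA of the signal recognition particle (SRP), which delivers secreted proteins to the endoplasmic reticulum, rpph1 and 2 further entries for the RNA of RNase P, which trims transfer RNA precursors, and the small nucleolar RNAs snord83a and snord46. By symbol, 22 members could be placed on 15 chromosomes of the RefSeq table, and the closest pair, hist2h3c and zgc:194989, had 10 genes between them.

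Together the 48 members gave 5149, 6070, 7193 and 4592 CPM in the 4 wild-type 1-cell libraries and 435.2, 420 and 391.5 CPM in the 3 wild-type 256-cell libraries. Their summed mean was 0.575% of all counts at the 1-cell stage, and 7.23% of that sum was left at 256-cell. In mutants the members gave 7074, 7203 and 7780 CPM at the 1-cell stage, and 642.7, 574.7 and 680.4 CPM at 256-cell, or 8.6% of the 1-cell sum. The mutant 1-cell sums overlapped the highest wild-type library, whereas all 3 mutant 256-cell sums were above the 3 wild-type ones. The rule held the wild-type sums low at 256-cell, so nothing is read from that difference. One entry without a symbol, ENSDARG00000115988, contributed 298.3 to 1720 CPM in the wild-type 1-cell libraries, so single members weighed heavily on these sums.

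**Figure D1:**
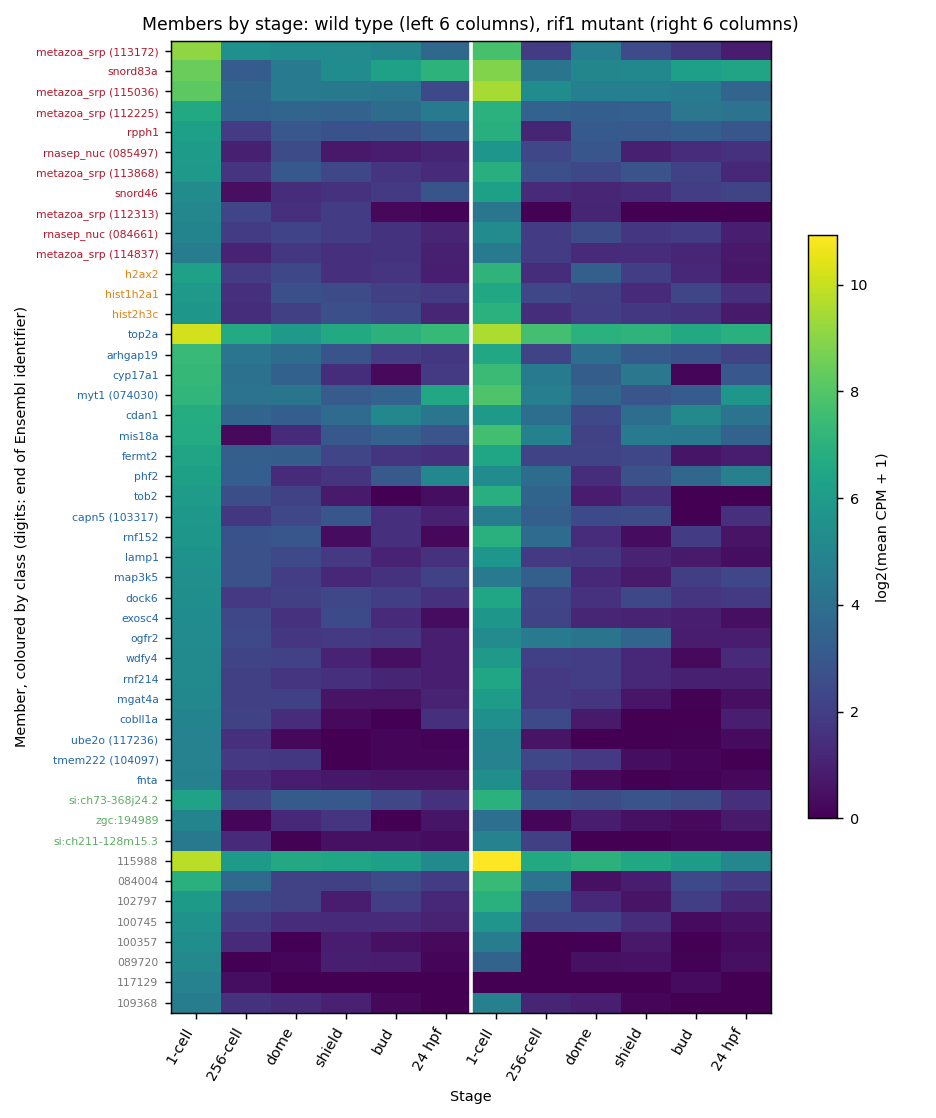
Mean level of each of the 48 members (rows, grouped by class, each class sorted by its wild-type 1-cell mean) at the 6 stages in wild type and rif1 mutants (columns), as log2(mean CPM + 1). The bright first column of each genotype is followed by dark columns; top2a, snord83a and the myt1 entry are among the few that stay or become bright later.

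The limits of the rule passed through a continuous range of values. Among uniquely named members just inside, the highest later wild-type mean was 12.3% of the 1-cell mean for map3k5, 12.2% for cdan1, 12% for rnf152 and 12% for lamp1. Just outside were rbm12ba at 12.7%, rab8a at 12.7%, pdp2 at 12.9% and alg11 at 13.1%.

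The mutant libraries took no part in choosing the members, and so could be tested. In mutants the same transcripts fell between the 1-cell and 256-cell stages. Of 47 members tested, 47 were lower at 256-cell (edgeR quasi-likelihood, adjusted p at most 0.0115). Among all 11598 entries tested, 24.1% were lower and 21.4% higher (45.5% in all). The members' median change was -4.42 on the log2 scale, against -0.02 over all entries tested. Of the 47, 4 had at most 3 counts in every mutant 256-cell library. Others had no count in 1 of the mutant 256-cell libraries, among them rpph1, snord46, h2ax2 and fermt2. All such members passed the low-count filter through the 1-cell libraries and could only be called lower. This limits the count of 47 and the tests of those members. The median share of the mutant 1-cell level left at 256-cell was 5.19%, against 104% over all entries at the 1-cell minimum, and 38 of the 47 members were at or under 1/8. The untested member, ENSDARG00000117129, had 18.1 to 37 CPM in the wild-type 1-cell libraries and no count in any of the 3 mutant 1-cell libraries. With a floor of 3 counts per library, its level there was at least 74.6-fold lower than in wild type. The rule required at least 20 CPM in wild type at that stage, so nothing is read from this difference. The call was lost for map3k5 (adjusted p = 0.182), ogfr2 (adjusted p = 0.406) and the capn5 entry ENSDARG00000103317 (adjusted p = 0.194) when all 12 groups shared 1 edgeR fit, and for the capn5 entry also without mutant 1-cell replicate 1 or 2 or mutant 256-cell replicate 3 (edgeR adjusted p = 0.0554, 0.0657 and 0.0552).

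Applied to the mutant libraries alone, the rule was met by 34 of the 48 members (70.8%), and by 140 entries in all, of which the 34 are 24.3%. Of the 14 members that did not meet it, 4 fell short of 20 CPM in the mutant 1-cell libraries and 10 kept more than 1/8 at one of the later stages. Of the 106 entries that met the rule in mutants only, 60 were under 20 CPM in the wild-type 1-cell libraries, and the other 46 kept a median of 19.2% at their highest later stage, with 1 above 50%.

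**Figure D2:**
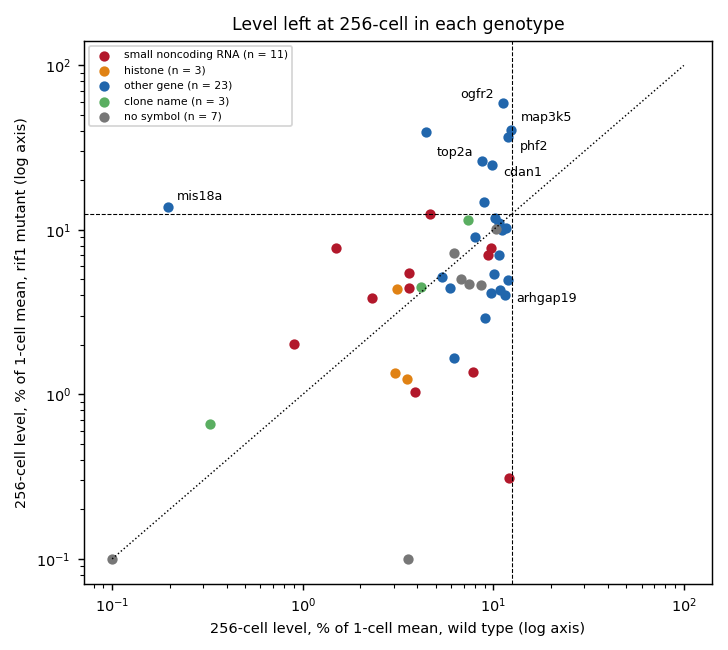
Level left at the 256-cell stage as a percent of the 1-cell mean, in wild type (x, log axis) and rif1 mutants (y, log axis), for the 47 members with a mutant 1-cell level. Dashed lines mark 1/8, the dotted line equal values, and values under 0.1% are drawn at 0.1%. No member lies right of the vertical line, as the rule requires; ogfr2, map3k5, the unlabelled capn5 entry ENSDARG00000103317 and phf2 lie well above the horizontal line at 58.7%, 40.6%, 39.5% and 36.5%.

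The structured noncoding RNAs made up 11 of the 48 members, and their wild-type 1-cell means ran from 23.4 to 552 CPM. In these libraries snord83a, a small nucleolar RNA of the C/D box kind, stood at 356, 366, 454 and 217 CPM in wild-type 1-cell embryos and at 455, 412 and 514 CPM in mutants. At 256-cell it stood at 10.5, 10 and 3.69 CPM in wild type and 25.2, 14.7 and 13 CPM in mutants. Every 256-cell library was far below every 1-cell library, and the fall in mutants was -4.82 ± 0.25 (log2, SE; edgeR adjusted p = 1.5e-08). The RNase P RNA rpph1 had 148, 146 and 53.3 CPM in mutant 1-cell libraries and 1.96, 0 and 1.64 CPM at 256-cell. Its fall, -6.59 ± 0.6 (log2, SE; edgeR adjusted p = 4.07e-06), was the largest among the 43 members whose 256-cell libraries were not all at or under 3 counts. For snord46 the mutant 1-cell libraries held 101, 57.9 and 57.7 CPM and the 256-cell libraries 1.22, 0 and 3.13 CPM, a fall of -5.7 ± 0.61 (log2, SE; edgeR adjusted p = 1.05e-05).

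The 6 SRP RNA members summed to 713 to 1404 CPM in wild-type 1-cell libraries and 939 to 1389 CPM in mutants, ranges that overlapped almost wholly. At 256-cell 6.7% of that sum was left in wild type and 4.94% in mutants. The 2 most abundant entries differed in opposite directions between the genotypes. ENSDARG00000113172 stood at 414, 893, 558 and 343 CPM in wild-type and 203, 293 and 137 CPM in mutant 1-cell libraries, and at 48.9, 38.3 and 43 against 2.33, 4.11 and 2.24 CPM at 256-cell. ENSDARG00000115036 stood at 170, 223, 521 and 243 CPM in wild-type and 803, 744 and 610 CPM in mutant 1-cell libraries, and at 10.9, 13.7 and 6.89 against 50.5, 24.9 and 42.2 CPM at 256-cell. The first was lower and the second higher in every mutant library at both stages. Of all entries at 1 CPM or more, 9.72% lay wholly below wild type at 1-cell and 13.1% at 256-cell. Wholly above were 14.4% and 17.2%. The rule used the wild-type libraries of both stages, so nothing is read from these differences. If the copies are near-identical, reads could be split between them and with SRP entries outside the set. Their sequences were not compared, and the sharing of reads was not tested. The same uncertainty applies to each SRP and RNase P entry printed here by identifier. A further SRP member, ENSDARG00000112313, fell from 15.4, 29.5 and 10.5 CPM in mutants to at most 1 count per library, a drop of at least 41.7-fold against the floor of 3 counts.

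The list of small noncoding RNA names held 38 entries at the 1-cell minimum, of which 11 were members. In mutants 31 of the 38 were lower at 256-cell and 2 higher (edgeR quasi-likelihood, adjusted p under 0.05), with a median of -3.59 on the log2 scale. Of all 11598 entries tested, 24.1% were lower and 21.4% higher, with a median of -0.02. Those 11598 were not held to the 1-cell minimum, as the 38 were. Among all entries at the minimum, the median mutant level left at 256-cell was 104%, against 8.92% for the 38. Because the list works by name prefix it also took in 10 protein-coding genes; without them, a trimming made after the values were seen, 28 entries remained and 24 of these were at or under 1/4 of their 1-cell level in mutants, as were 300 of all 5941 entries at the minimum. The lower counts were shared by the SRP entries outside the set: the 10 that were no members kept 1.44 to 33.7% in wild type and at most 12.5% in mutants. These libraries see only copies primed by oligo(dT), and whether those copies had a poly(A) tail was not tested. The total amount of SRP, RNase P or small nucleolar RNA in the embryo was therefore not measured. Not every small RNA followed, and a snord15 entry, ENSDARG00000098419, stood at 92.6% of its 1-cell level in wild type and 108% in mutants.

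The 3 histone members were h2ax2, an H2A.X gene, hist2h3c, an H3 gene, and hist1h2a1, an H2A gene. h2ax2 had 64.7, 69.1, 101 and 69 CPM in wild-type and 149, 123 and 138 CPM in mutant 1-cell libraries. All mutant libraries were above all wild-type ones. At 256-cell its level was 0.978, 5.14 and 1.92 CPM in wild type and 2.08, 0 and 2.98 CPM in mutants, and the fall in mutants was -6.39 ± 0.49 (log2, SE; edgeR adjusted p = 8.99e-07). hist2h3c stood at 45.2, 52.4, 64.8 and 53.8 CPM in wild-type and 153, 119 and 99.8 CPM in mutant 1-cell libraries, and fell in mutants to 1.22, 1.89 and 1.94 CPM (log2 change -6.33 ± 0.29, SE; edgeR adjusted p = 6.35e-09). hist1h2a1 fell in mutants from 119, 99.4 and 60 CPM to 2.69, 4.11 and 5.37 CPM (log2 change -4.64 ± 0.33, SE; edgeR adjusted p = 2.07e-07). The genotypes did not overlap at 1-cell for h2ax2 and hist2h3c, and did for hist1h2a1. At that stage the mutants lay wholly above wild type for 14.4% of all entries at 1 CPM or more. The wild-type 1-cell libraries took part in the rule, so nothing is read from these differences.

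A set of histone genes was collected after these values were seen and is described without a test. Of 30 in the table, 18 reached the 1-cell minimum. The 8 with hist1 or hist2 names, which denote the clustered genes used for packaging newly made DNA, kept 3.07 to 16.2% at 256-cell in wild type and 0.626 to 13.3% in mutants. The other 10 ranged from 3.53 to 496% in wild type and from 1.24 to 695% in mutants. Replacement H3 genes stayed high, with h3f3d at 2314 CPM at 1-cell and 2482 CPM at 256-cell in wild type, and 2324 and 2582 CPM in mutants. h2az2b, an H2A.Z gene, was at 183 CPM and then 910 CPM in wild type. Histone genes of the clustered kind are near copies of each other, so their single values are uncertain. For them too, only copies primed by oligo(dT) were counted, and the total amount of histone RNA was not measured.

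**Figure D3:**
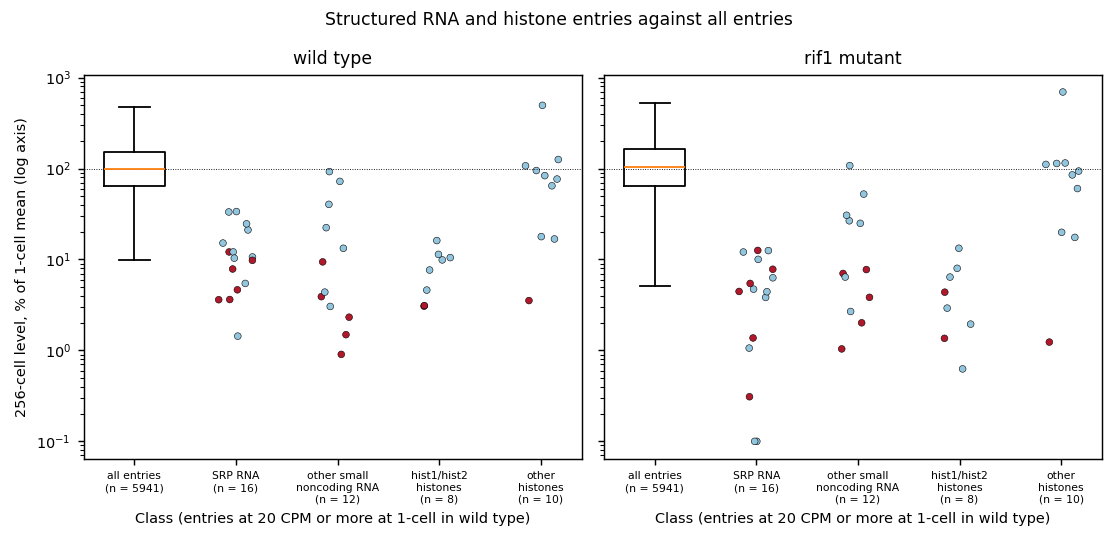
Level left at 256-cell as a percent of the 1-cell mean (log axis) for all 5941 entries at the 1-cell minimum (box: quartiles and median; whiskers: 1st and 99th percentiles) and for single entries (points) of 4 classes; red points are members, values under 0.1% are drawn at 0.1%. SRP RNA and the hist1 and hist2 histones lie well below 100% in both genotypes, while most other histones lie near it.

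Among the named genes, top2a, which encodes the topoisomerase that untangles chromosomes before they separate, was by far the most abundant. It stood at 1487, 1043, 1021 and 1059 CPM in wild-type and 603, 909 and 816 CPM in mutant 1-cell libraries. At 256-cell it stood at 104, 105 and 92.8 CPM in wild type and 208, 173 and 225 CPM in mutants, and at dome at 51.2 to 61.1 against 118 to 137 CPM. The mutants were lower than wild type in every library at 1-cell and higher in every library at 256-cell and dome. Between the genotypes top2a was called by edgeR at 256-cell and dome but not at 1-cell. At 1-cell 9.72% of all entries lay wholly below wild type, and 17.2% and 12.1% lay wholly above at 256-cell and dome. The fall within mutants was -2.07 ± 0.18 (log2, SE; edgeR adjusted p = 1.28e-06), and 26.1% was left, against 8.73% in wild type. The rule itself kept the wild-type share low, so nothing is read from the larger mutant share. The same limit holds for every genotype comparison from 1-cell to shield in the named genes below.

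mis18a, whose product in human cells helps load the centromeric histone CENP-A, was nearly absent from wild type and still present in mutants at 256-cell. Its 1-cell libraries held 177, 83.8, 95.4 and 59 CPM in wild type and 189, 197 and 199 CPM in mutants. At 256-cell wild type had 0.612, 0 and 0 CPM, and mutants had 25.1, 28.8 and 26.7 CPM. The mutant libraries agreed closely with one another and lay far above the wild-type ones, yet within mutants the transcript still fell by 2.99 on the log2 scale (SE 0.17, edgeR adjusted p = 3.74e-08). At dome it stood at 0 to 2.61 CPM in wild type and 2.35 to 4.1 CPM in mutants, ranges that overlapped. Low wild-type levels at 256-cell were a condition of membership, so nothing is read from the contrast with mutants there.

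ogfr2, named for its likeness to an opioid growth factor receptor, kept the largest share in mutants. Its 1-cell libraries held 31.7, 45.8, 37.3 and 36 CPM in wild type and 41.4, 35.1 and 35.3 CPM in mutants, which overlapped. At 256-cell it had 5.75, 4.14 and 2.88 CPM in wild type against 21.1, 24.3 and 20.3 CPM in mutants, and at shield 2.46 to 3.01 against 6.97 to 17.6 CPM. Mutants were above wild type in every library at 256-cell, dome and shield, and the genotypes overlapped again at bud, at 1.32 to 2.84 and 0 to 1.52 CPM. The rule required low wild-type levels at 256-cell, dome and shield, so nothing is read from the differences at those stages. The fall from 1-cell to 256-cell in mutants was -0.89 ± 0.25 (log2, SE; edgeR adjusted p = 0.01), the smallest of the 47.

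As for top2a, every mutant 1-cell library was below every wild-type one for phf2, a histone demethylase, map3k5, the stress-activated kinase ASK1, and cdan1, which in human cells binds the histone chaperone ASF1. phf2 stood at 87.6, 89.4, 55.6 and 59.4 CPM in wild-type and 38.6, 45 and 28.6 CPM in mutant 1-cell libraries, and map3k5 at 56.7, 44.2, 46.3 and 30 against 23.5, 22.9 and 19.9 CPM. cdan1 stood at 94.2, 110, 95.5 and 132 against 58.3, 64.5 and 53.9 CPM. At 256-cell phf2 had 6.24, 10 and 9.78 CPM in wild type and 13.9, 10.3 and 16.7 CPM in mutants, and map3k5 had 5.26, 4.71 and 6.41 against 7.34, 10.5 and 9.1 CPM. Both were then above wild type in every mutant library, phf2 only narrowly, whereas cdan1, at 8.07, 8.43 and 15.5 against 8.08, 21.9 and 13.9 CPM, overlapped. Neither phf2 nor map3k5 was called between the genotypes at 256-cell, where 17.2% of all entries lay wholly above wild type. Within mutants phf2 fell by 1.57 (SE 0.3, edgeR adjusted p = 0.000778), map3k5 fell by 1.43 (SE 0.34, edgeR adjusted p = 0.00322) and cdan1 fell by 2.15 (SE 0.32, edgeR adjusted p = 8.82e-05) on the log2 scale.

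arhgap19, whose product acts in cytokinesis in human cells, was lower in every mutant library at both 1-cell and 256-cell. It stood at 119, 172, 226 and 129 CPM in wild-type and 106, 81.7 and 93.6 CPM in mutant 1-cell libraries, and at 21.8, 13.3 and 21.1 against 3.55, 2.57 and 5.22 CPM at 256-cell. At dome the mutants had 17.1, 16.5 and 9.67 CPM, above their own 256-cell level, and overlapped the 11.2 to 15.3 CPM of wild type. The fall from 1-cell to 256-cell in mutants was -4.74 ± 0.3 (log2, SE; edgeR adjusted p = 7.66e-08). lamp1, a lysosomal membrane protein, was lower in every mutant library at 256-cell only narrowly, at 2.81, 2.06 and 2.98 CPM against 8.56, 5.29 and 3.04 CPM. Unlike arhgap19, it was not called between the genotypes there, and 13.1% of all entries lay wholly below wild type at that stage.

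**Figure D4:**
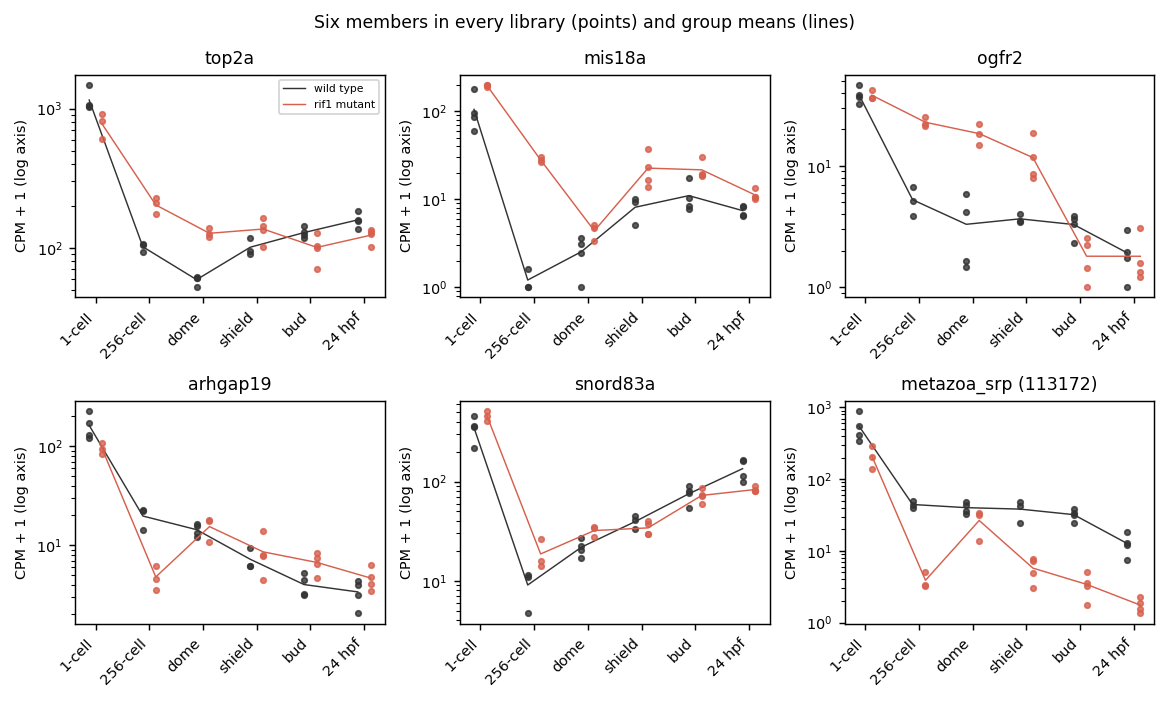
CPM + 1 (log axis) in every library (points) with group means (lines) across the 6 stages in wild type (black) and rif1 mutants (red) for 6 members. At 256-cell the mutant points lie above wild type for top2a, mis18a, ogfr2 and snord83a and below it for arhgap19 and the SRP RNA entry ENSDARG00000113172.

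The next 3 members are named because their mutant 1-cell libraries lay wholly above wild type, as did 14.4% of all entries. rnf214, a RING finger protein, stood at 21.7, 26.8, 58.2 and 36.9 CPM in wild-type and 104, 78 and 75.4 CPM in mutant 1-cell libraries. dock6, which activates the GTPases Rac1 and Cdc42, stood at 61.2, 39.6, 40.8 and 28 against 102, 81.8 and 75.8 CPM. rnf152, a lysosomal ubiquitin ligase, stood at 37.6, 71.7, 61.3 and 48 against 111, 120 and 130 CPM. In mutants rnf214 fell by 5.26 (SE 0.36, edgeR adjusted p = 1.28e-07), dock6 fell by 4.62 (SE 0.26, edgeR adjusted p = 3.38e-08) and rnf152 fell by 3.3 (SE 0.21, edgeR adjusted p = 8.65e-08) on the log2 scale. tob2, of a family that recruits the CCR4-NOT deadenylase to mRNAs, stood at 46.5, 68.8, 84.4 and 59.4 against 128, 99.8 and 121 CPM at 1-cell, again without overlap, and fell in mutants by 3.59 (SE 0.25, edgeR adjusted p = 1.64e-07). fermt2, which activates integrins, overlapped at 1-cell, at 59.6 to 112 CPM in wild type and 61 to 104 CPM in mutants, and fell in mutants by 4.6 (SE 0.72, edgeR adjusted p = 0.000773).

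The other named members were also tested in mutants. The changes from 1-cell to 256-cell in mutants were -4.72 ± 0.32 for mgat4a, a glycosyltransferase of the Golgi, -4.31 ± 0.61 for wdfy4, -3.44 ± 0.31 for cobll1a, and -4.46 ± 0.55 for fnta, a subunit of protein farnesyltransferase (log2, SE; edgeR adjusted p = 1.17e-07, 0.000106, 1.44e-06 and 1.89e-05). mgat4a stood at 30.6 to 36.3 CPM in wild-type and 51.4 to 68.7 CPM in mutant 1-cell libraries, which did not overlap. The capn5 entry ENSDARG00000103317 and the tmem222 entry ENSDARG00000104097, both with shared symbols, kept 39.5% and 14.7% in mutants. The ube2o entry ENSDARG00000117236, for a ubiquitin-conjugating enzyme, fell from 28.5, 25.9 and 34.6 CPM to 0, 0 and 1.49 CPM (log2 change -6 ± 0.8, SE; edgeR adjusted p = 5.35e-05).

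Among the entries without a symbol, ENSDARG00000115988 stood at 298, 851, 1720 and 695 CPM in wild-type and 1383, 1644 and 2818 CPM in mutant 1-cell libraries, which overlapped. It fell in mutants to 88.8, 110 and 94.2 CPM (log2 change -4.46 ± 0.27, SE; edgeR adjusted p = 1.21e-07), and so remained the most abundant of these 8 entries after the fall. ENSDARG00000100357 and ENSDARG00000089720 had no count in any of the 3 mutant 256-cell libraries, at least 52.1-fold and 23.1-fold lower than their mutant 1-cell means against the floor of 3 counts. For the clone-named zgc:194989, with at most 2 counts there, the bound was 34.1-fold.

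cyp17a1, an enzyme that makes androgens and other sex steroids from progestagens, was at 204, 229, 88.4 and 95.7 CPM in wild-type and 193, 180 and 156 CPM in mutant 1-cell libraries. It fell in mutants by 3.19 (log2, SE 0.23, edgeR adjusted p = 2.11e-07). At shield wild type had 0.13, 2.01 and 3.02 CPM, whereas mutants had 12.4, 21.1, 19.9 and 24.1 CPM, with no overlap. cyp17a1 is also 1 of 14 marker genes of ovarian follicle cells, which surround the oocyte; of these markers 9 were at 0 in the wild-type and 9 in the mutant 1-cell libraries. The summed marker level, cyp17a1 included, was 97.9 to 243 CPM in wild-type and 175 to 208 CPM in mutant 1-cell libraries. Most of that sum was cyp17a1 itself; another marker, hsd3b2, had a mean of 10.8 CPM at 1-cell and 22.3 CPM at 256-cell in wild type, and 14.7 and 35 CPM in mutants, and so did not share the course of cyp17a1. The part of follicle cells in the cyp17a1 level was not tested.

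The list of mRNA decay genes did not hold the member tob2. Of the 48 genes of this list at the 1-cell minimum, exosc4, a subunit of the RNA exosome, was the member. It stood at 31.6 to 49.1 CPM in wild-type and 48.9 to 59.2 CPM in mutant 1-cell libraries, and fell in mutants by 3.97 (log2, SE 0.31, edgeR adjusted p = 4.26e-07). Of the 59 decay genes tested in mutants, 18 were lower at 256-cell and 15 higher (edgeR quasi-likelihood), where 24.1% of all entries were lower and 21.4% higher. Their median was -0.18 on the log2 scale, against -0.02 over all entries. cnot1, the scaffold of CCR4-NOT, fell by 1.83 (SE 0.13, edgeR adjusted p = 2.39e-07), while the zinc finger factor zfp36l2 rose by 3.69 (SE 0.23, edgeR adjusted p = 6.96e-08). Oocyte meiosis factors gave 0 members of 21 at the minimum and egg coat genes 0 of 17, and their median levels at 256-cell were 109% and 70.5% of the 1-cell level in wild type and 118% and 103% in mutants. Solute carriers (79), numbered zinc fingers (41), kinesins (18), Rab GTPases (46), cyclins (6) and claudins (4) gave 0 members, and genes with TMEM names gave 1 of 69; at the 0.808% of all entries that were members, such counts are near the background. Adult blood markers summed to at most 1.96 CPM in any 1-cell library, and of 12 sperm and testis markers 1 reached the minimum and was no member.

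At the 4 stages from 1-cell to shield the wild-type libraries had themselves chosen the members, so a genotype difference in the set is given as a description and nothing is read from it. At the 1-cell stage 18 of 48 members passed an edgeR adjusted p under 0.05, 9 lower and 9 higher in mutants, where 10.2% of all entries tested passed, 5.03% lower and 5.14% higher. The mutant libraries lay wholly above wild type for 13 members (14.4% of all entries at 1 CPM or more) and wholly below for 8 (9.72%). At 256-cell 9 of 43 tested members passed, 3 lower and 6 higher (13.5% of all entries, 6.71% lower and 6.75% higher), and 13 lay wholly above (17.2%) and 4 wholly below (13.1%). At dome 3 of 38 passed, all higher (17% of all entries, 8.59% lower and 8.42% higher), with 3 wholly above (12.1%) and 5 wholly below (14.6%), and at shield 4 of 31 passed, 1 lower and 3 higher (9.71%, of which 5.05% lower and 4.66% higher), with 4 wholly above (8.35%) and 3 wholly below (13.7%). The 1-cell count depended on single libraries: it was 8 without mutant 1-cell replicate 1 and 22 without wild-type 1-cell replicate 3.

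Bud and 24 hpf took no part in the rule. Most members stayed low: the median share of the 1-cell level at 24 hpf was 2.33% in wild type and 1.68% in mutants, against 30.4% and 28.9% over all entries at the 1-cell minimum. The rule had already held every member to at most 1/8 at shield in wild type, where 18.1% of those 5941 entries were. Nothing is therefore read from the contrast with all entries. In whole embryos, fewer cells with a transcript and less of it per cell cannot be told apart. From 256-cell to 24 hpf in mutants, 8 of 39 tested members were higher and 6 lower (edgeR quasi-likelihood), where 42.8% of all entries tested were higher and 35.0% lower (77.7% in all). With library totals in place of TMM scaling the counts were 4 higher and 21 lower, and the median of all entries shifted by -1.15 on the log2 scale.

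Of the 10 small noncoding members tested, 4 rose by 24 hpf, where 42.8% of all entries tested were higher. The count is near that share, and nothing is read from it. The 4 were snord83a, rpph1, snord46 and the SRP entry ENSDARG00000112225, which rose by 1.92 (log2, SE 0.45, edgeR adjusted p = 0.0011). The other 6 did not pass, among them the SRP entries ENSDARG00000115036 at -0.72 (edgeR adjusted p = 0.0558) and ENSDARG00000113172 at -0.74 (edgeR adjusted p = 0.41). snord83a stood at 161, 98.6, 112 and 164 CPM in wild type and 79.4, 88.6, 78.9 and 82.2 CPM in mutants at 24 hpf. With TMM scaling its rise from 256-cell in mutants was 3.36 ± 0.22 (log2, SE; edgeR adjusted p = 1.35e-09). In CPM, which uses library totals, the rise was smaller, from a mutant mean of 17.64 to 82.25. rpph1 rose by 3.5 with TMM scaling (SE 0.75, edgeR adjusted p = 0.000561) to 5.49 to 8.19 CPM. In CPM its rise was also smaller, from a mutant mean of 1.199 to 6.559, and its mutant 256-cell libraries held only 16, 0 and 11 counts. snord46 rose by 2.39 (SE 0.93, edgeR adjusted p = 0.029), a call lost without mutant 256-cell replicate 1 or mutant 24 hpf replicate 2 or 3 and with library totals. None of the 3 came back to its 1-cell level, and the call for ENSDARG00000112225 was lost with library totals (edgeR adjusted p = 0.116).

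Of the protein-coding members, phf2 rose in mutants to 31.5, 20.6, 26.9 and 24.2 CPM at 24 hpf. With TMM scaling the change was 2.05 (log2, SE 0.29, edgeR adjusted p = 1.02e-05). In CPM, which uses library totals, the rise was smaller, from a mean of 13.64 at 256-cell to 25.79. The latter was 68.9% of its mutant 1-cell mean. The myt1 entry ENSDARG00000074030, a myelin transcription factor gene with a shared symbol, rose to 39.4, 59.1, 57.6 and 57.3 CPM. Its change was 2.24 with TMM scaling (SE 0.22, edgeR adjusted p = 1.99e-07). In CPM it was again smaller, from a mean of 24.75 to 53.37. cdan1 peaked earlier, at 36.9, 29.3, 35.9 and 35.7 CPM in mutants at bud, and was 1.39 (SE 0.35, edgeR adjusted p = 0.00185) above its 256-cell level at 24 hpf; with library totals that change was 0.23 (adjusted p = 0.559). top2a was 0.4 (SE 0.16, edgeR adjusted p = 0.0279) higher at 24 hpf than at 256-cell with TMM scaling but changed by -0.73 on the log2 scale with library totals, so its direction depended on the scaling. ogfr2 fell further, by 3.56 (SE 0.62, edgeR adjusted p = 8.64e-05), and rnf152 fell by 3.58 (SE 0.91, edgeR adjusted p = 0.00204). tob2 had no count in any of the 4 mutant libraries at 24 hpf, at least 33.1-fold lower than its 256-cell level against the floor of 3 counts per library.

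Between the genotypes at bud, 2 of 28 tested members differed (edgeR quasi-likelihood), 1 lower and 1 higher in mutants, where 5.51% of all entries tested did, 3.09% lower and 2.41% higher. The SRP RNA entry ENSDARG00000113172 had 33.2, 37, 30.6 and 23.3 CPM in wild type and 2.21, 0.762, 2.53 and 4.16 CPM in mutants, with no overlap, a difference of -3.58 ± 0.36 (log2, SE; edgeR adjusted p = 1.02e-06). mis18a had 9.23, 6.76, 7.25 and 16.6 CPM in wild type and 18.1, 17.7, 17.4 and 28.9 CPM in mutants, with no overlap, a difference of 1.09 ± 0.31 (edgeR adjusted p = 0.0403). The mis18a call was lost without wild-type bud replicate 1, 2 or 3 or mutant bud replicate 2, 3 or 4, at adjusted p = 0.0504 to 0.136 in edgeR. Across the members tested or not, 1 lay wholly above wild type (4.80% of all entries) and 1 wholly below (7.70%).

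At 24 hpf 5 of 27 tested members differed between the genotypes (edgeR quasi-likelihood), 3 lower and 2 higher in mutants, where 8.64% of all entries tested did, 4.29% lower and 4.35% higher, and the mutants lay wholly above for 3 (4.95%) and wholly below for 5 (9.08%). ENSDARG00000113172 stood at 17.1, 6.38, 11 and 12.1 CPM in wild type and 1.26, 0.891, 0.525 and 0.344 CPM in mutants, a difference of -3.83 ± 0.43 (log2, SE; edgeR adjusted p = 3.58e-08). The other abundant SRP entry, ENSDARG00000115036, went the other way, at 4.13, 3.87, 5.39 and 4.09 against 7.38, 8.91, 13.3 and 14.1 CPM (1.38 ± 0.31, edgeR adjusted p = 0.00263). The difference was -0.64 ± 0.12 for snord83a (log2, SE; edgeR adjusted p = 0.000484) and -0.69 ± 0.13 for the myt1 entry ENSDARG00000074030 (edgeR adjusted p = 0.000471), both lower in mutants. cyp17a1 had 2.5, 3.56, 1.27 and 3.14 CPM in wild type and 5.76, 9.02, 4.3 and 8.59 CPM in mutants, a difference of 1.46 ± 0.4 (edgeR adjusted p = 0.0156). That call was lost without wild-type 24 hpf replicate 3 or mutant 24 hpf replicate 2 or 4, at edgeR adjusted p = 0.0599, 0.0653 and 0.062. When all 12 groups shared 1 fit, ENSDARG00000113172 alone of the 5 passed.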

How the data were processed

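The deposited table holds raw counts of 3′ end reads per gene, whole numbers that the authors did not normalise. STAR, HTSeq and the build GRCz11 are named in the submitters' processing notes; the annotation release, the use of strand and the handling of molecular identifiers are not given in the sources used here, so reads are not known to be independent molecules, floors cover counting error only, and overlapping or antisense genes can share reads. Symbols came from a table of Ensembl identifiers; a RefSeq table of another assembly, GRCz12tu, served only to show which genes are neighbours. No sequence is shown.

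The members, the gene lists and the rules for naming genes were chosen with earlier results of these data known. Named genes were uniquely named members with high 1-cell levels, extreme mutant ratios, non-overlapping genotypes, calls at bud or 24 hpf, or values next to the limit, plus list members; entries printed by identifier, the histone set, the remaining members and cnot1 and zfp36l2 were chosen after their values were seen.

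CPM used the column total. Tests used edgeR 4.0.16 (limma 3.58.1, R 4.3.3): robust quasi-likelihood fits of the 2 groups compared, TMM scaling, filterByExpr, and Benjamini-Hochberg adjustment over all entries tested, with calls under 0.05. Log2 fold changes carry standard errors. Steps were tested on simulated data. Alternatives were RLE factors, library totals, no filter, DESeq2 1.42.0, 1 fit of all 12 groups, a replicate block, each library left out, and other limits of the rule. The 57 replicate pairs all differed beyond counting noise (chi-square per gene at least 7.6). The labels do not say that replicates came from separate clutches, so p-values measure the spread between these samples.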

Additional observations from a re-analysis of the deposited data

Results flagged for a closer look

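Over the 20 members picked by the rule for named genes (at 5 CPM or more after the 1-cell stage) and the summed level of the set, 72 groups of 4 libraries were checked. In 8 of them 1 library lay far from the others; chance alone flags about 1 in 20. top2a was at 1487 CPM in wild-type 1-cell replicate 1 (others 1021 to 1059), and at 51.2 CPM in wild-type dome replicate 3 (others 59.9 to 61.1). phf2 was at 9.35 CPM in mutant shield replicate 1 (others 4.07 to 4.29). h2ax2 was at 100.9 CPM in wild-type 1-cell replicate 3 (others 64.7 to 69.1). cdan1 was at 29.3 CPM in mutant bud replicate 2 (others 35.7 to 36.9). In mutant bud replicate 4, mis18a was at 28.9 CPM (others 17.4 to 18.1) and rpph1 at 17.9 CPM (others 4.42 to 6.27). mis18a was at 12.3 CPM in mutant 24 hpf replicate 4 (others 9.09 to 9.56).

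For 4 of the named members the mutant libraries lay wholly on one side of wild type at one stage and wholly on the other at the next. The share of all entries that did so was not counted, and the difference between stages was not tested. Singly, 9.72% of all entries lay wholly below wild type at 1-cell, 17.2% wholly above at 256-cell and 14.6% wholly below at dome. The rule asked for high 1-cell and low 256-cell levels in wild type. It thus favours mutants that are lower and then higher, and nothing is read from this pattern. The mutant to wild-type ratio of means was 0.673 at 1-cell and 2.01 at 256-cell for top2a, 0.512 and 1.57 for phf2, and 0.498 and 1.64 for map3k5. For rnf152 it was 2.29 at 256-cell and 0.241 at dome. The capn5 entry ENSDARG00000103317, outside the rule for named genes, did the same, at 0.41 at 1-cell and 3.66 at 256-cell. None of the 4 named members was called between the genotypes by edgeR at both of its stages. top2a was not called at 1-cell, and phf2 and map3k5 were not called at 256-cell. rnf152 was called at neither 256-cell nor dome. The capn5 entry was called at both 1-cell and 256-cell.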

How the results depend on the processing

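The number of members was 30 at a minimum of 40 CPM, 71 at 10 CPM, 169 with a limit of 1/4, 8 with 1/16 and 41 with TMM-scaled CPM (35 of them shared with the 48), and 40 to 54 with each of 14 wild-type libraries left out; 28 were members in all 14. Counts of members with each library left out ran from 46 to 47 for the fall to 256-cell in mutants and from 12 to 16 for the change from 256-cell to 24 hpf; between genotypes they ran from 8 to 22 at 1-cell, 8 to 8 at 256-cell, 2 to 4 at dome, 3 to 5 at shield, 1 to 2 at bud and 4 to 6 at 24 hpf. With library totals, 25 members changed from 256-cell to 24 hpf, top2a at -0.73, and 1 differed at bud. The 1-cell genotype count was 28 with no filter and 6 in 1 fit of all 12 groups, which left 1 member at 24 hpf. The causes were not tested. The replicate numbers did not pair the libraries (correlations of deviations -0.118 to 0.0612); with the replicate block, 10 members changed from 256-cell to 24 hpf. Library totals moved the median of all entries by 0.12 from 1-cell to 256-cell and RLE factors by 0.13 from 256-cell to 24 hpf. Levels of a few counts limit the later stages: 27 to 31 members could be tested between genotypes from shield on.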
